A study of Rattus norvegicus with 30 samples.

Results

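The insulin-like growth factor (IGF) family was followed in rat heart after a single dose of isoproterenol through 9 genes: the ligands Igf1 and Igf2, the receptor Igf1r, and the binding proteins Igfbp2, Igfbp3, Igfbp4, Igfbp5, Igfbp6 and Igfbp7. Its members were all probe sets on the array whose annotated gene symbol is 1 of these 9, which gave 21 of 31042 probe sets that are not array controls. Of these, 17 were bright enough to test, among 24292 probe sets tested in all. The other 4, 3 for Igf2 and 1 for Igfbp5, did not reach the filter level of 5.29 log2 units in 3 arrays.

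IGF1 and IGF2 are secreted peptides that bind the IGF1 receptor, a tyrosine kinase that signals through insulin receptor substrates to the PI3 kinase, AKT and MAP kinase pathways. IGF-binding proteins hold the ligands in blood and tissue, where they can prolong their life or keep them from the receptor, and proteases release the ligands again. In heart muscle, IGF1 is known for promoting the growth and survival of cardiomyocytes, and IGF-binding proteins are also part of the secreted products of fibroblasts in many tissues.

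The study profiled heart muscle of male Wistar Han rats of the Crl:WI(Han) strain on 30 Affymetrix RAT230_2 arrays, 1 sample an array, at 4 times after dosing. Isoproterenol, given as the hydrochloride, is a beta-adrenergic agonist that raises heart rate and contractility and damages heart muscle at high doses. The isoproterenol groups had 5 arrays at 1 h, 4 at 3 h, 4 at 24 h and 5 at 72 h, and each vehicle group, killed at the same times, had 3. Neither the labels nor the design text state the age of the rats. The dose is labelled as 0.5 mg with a weight and volume unit on the samples and as 0.5 mg alone in the design text, which leaves the amount per body weight unsettled. The last time is 72 h in the sample labels, which were followed, and 48 h in the design text. Samples are titled biological replicates, but nothing says that each is a separate animal. The p-values therefore cover the spread between the arrays of a group, and how much of that lies between animals is not known.

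Before normalization the median intensity of the arrays ran from 21.2 to 70.3, and after it arrays of the same group correlated at 0.934 to 0.984. Array number and treatment cannot be told apart, because isoproterenol samples carry chip numbers 33 to 62 and vehicle samples 4 to 21. Within each treatment the chip numbers also rise with time, so array number and time cannot be told apart either. Isoproterenol 72 h replicate 1 stood apart: its mean correlation was 0.948 with its own group and 0.962 with the vehicle arrays of 72 h. Isoproterenol 24 h replicate 3 did likewise, at 0.957 with its own group and 0.962 with the vehicle arrays of 24 h. The 72 h and 24 h differences without these arrays are therefore given as well. Because these arrays were picked for their likeness to vehicle, leaving them out tends to widen a difference. Those values are thus no independent check, and whether the arrays reflect a weaker response was not tested. The tissue label was borne out by the markers: 16 of 18 cardiomyocyte markers were tested, with Actc1 and Nebl having no named probe set, and their summed intensity was 103419 to 132380 on every array.

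Values below are log2 levels, that is quantile-normalized log2(intensity + 16), and a probe set is called higher or lower where limma's adjusted p is under 0.05. Because each probe set binds with its own strength, levels are compared between arrays and not between probe sets. Where groups are said not to overlap, this describes the arrays only. With 3 vehicle arrays such separation can arise by chance, and its share among all tested probe sets was not counted. At 1 h, 2 of the 17 tested probe sets were called, both higher, where 2.65% of all tested probe sets were called, 1.83% higher and 0.815% lower. At 3 h, 8 were called, where 11.4% of all were. Of these 2 were higher and 6 lower, against 6.11% higher and 5.28% lower among all. At 24 h, 2 were called, 1 higher and 1 lower, against 13% of all, 7.33% higher and 5.7% lower. At 72 h, 10 were called, 6 higher and 4 lower, against 17.9% of all, 9.37% higher and 8.56% lower. At 24 h the members' count was close to that background. Igf1 and Igfbp6 rose at 72 h, Igfbp3 and Igfbp4 rose early, and Igfbp5 fell at 3, 24 and 72 h on its most intense probe set, with 2, 1 and 4 of its 4 tested probe sets called at those times.

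**Figure D1:**
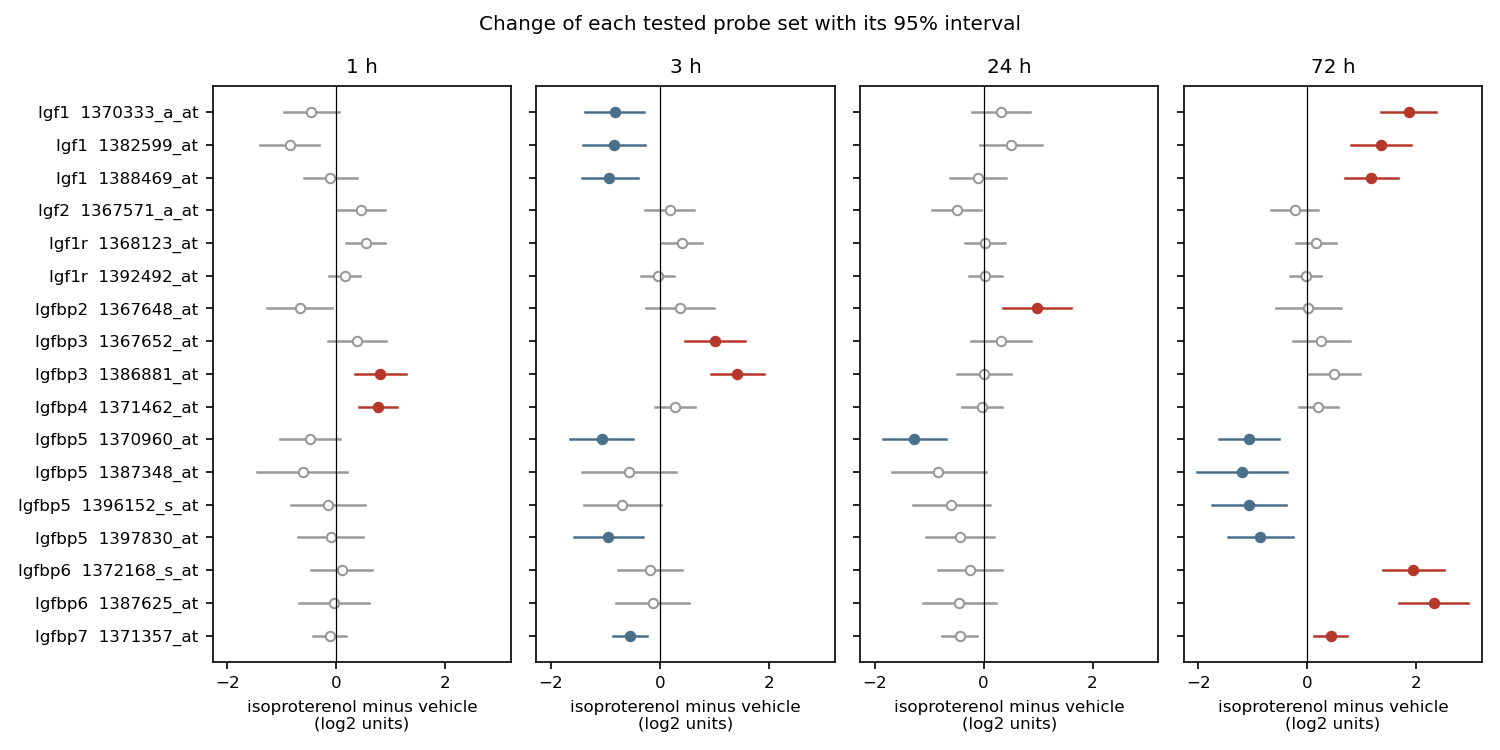
Isoproterenol minus vehicle difference (log2 units, x axis) of each of the 17 tested probe sets (rows) at 1, 3, 24 and 72 h, with 95% intervals from limma; filled red points were called higher, filled blue points lower, and open points were not called. The 72 h panel holds the largest differences, 1.86 for Igf1 and 2.32 for Igfbp6, and the 3 h panel shows the 3 Igf1 probe sets below 0 together.

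Igf1, the ligand that mediates much of the action of growth hormone, was lower 3 h after isoproterenol and higher at 72 h on each of its 3 probe sets. The 250 bases before its listed start site on the plus strand, chr7:24172282-24172531 in the RefSeq assembly GRCr8, are shown as the control region of the ligand on which the time course turns; no searched motif matched, so the line holds no capitals.
Igf1: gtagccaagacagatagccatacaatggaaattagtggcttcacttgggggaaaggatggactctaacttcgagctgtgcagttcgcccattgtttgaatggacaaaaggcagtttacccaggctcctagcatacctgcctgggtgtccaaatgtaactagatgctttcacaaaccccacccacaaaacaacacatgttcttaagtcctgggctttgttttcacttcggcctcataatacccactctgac
The motifs searched on both strands of 300 bases around each start site were the cAMP response element TGACGTCA, its core TGACG, the AP-1 site TGANTCA, the EGR site GCGNGGGCG, the GC box GGGCGG, the TATA box TATAAA and the CArG box. In 10 promoter entries for the 9 genes the first 3 had no match, while 1.83%, 21.2% and 7.33% of all 33469 promoters in the table hold them, the core being part of the full element. A match or its absence describes the letters of these windows only.

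At 72 h the most intense Igf1 probe set, 1370333_a_at, had log2 levels of 9.57, 11.08, 11.41, 11.10 and 11.01 on the isoproterenol arrays, against 8.98, 9.09 and 8.85 on the vehicle arrays. All 5 isoproterenol arrays were above the vehicle arrays, and replicate 1 lay closest to them. Igf1 was 3.63-fold higher in isoproterenol hearts, a log2 difference of 1.86 ± 0.25 (SE) with an adjusted p of 8.83e-06 and a 95% interval of 1.35 to 2.37. In the deposited intensities the same Igf1 arrays read 991, 1160, 3010, 1950 and 2690 with isoproterenol, against 489, 347 and 240 with vehicle.

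The second Igf1 probe set, 1382599_at, had 6.98, 8.22, 8.59, 8.04 and 8.42 at 72 h with isoproterenol, against 6.59, 6.68 and 6.82 with vehicle. Its groups did not overlap, and the log2 difference was 1.35 ± 0.27 (adjusted p = 0.000632). The third, 1388469_at, had 8.59, 10.16, 10.10, 9.83 and 9.91 with isoproterenol and 8.24, 8.90 and 8.48 with vehicle. Here isoproterenol replicate 1 fell inside the vehicle range while the other 4 were above it, and the difference was 1.18 ± 0.24 (adjusted p = 0.000886). Without that array the 3 differences of Igf1 were 2.18, 1.62 and 1.46, with adjusted p-values of 1.12e-10, 2.95e-06 and 4.93e-07. Igf1 passed the threshold at 72 h on all 3 probe sets under each of the 14 alternative settings and without each of the 30 arrays in turn.

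At 3 h the direction was opposite. Igf1 on 1370333_a_at had 8.51, 8.06, 8.48 and 8.44 with isoproterenol, against 9.07, 9.40 and 9.14 with vehicle. All 4 isoproterenol arrays lay below the vehicle arrays, with a difference of -0.83 ± 0.26 (adjusted p = 0.0349). On 1382599_at the isoproterenol values were 5.73, 5.93, 6.09 and 6.01 and the vehicle values 6.82, 7.08 and 6.45, a difference of -0.85 ± 0.28 (adjusted p = 0.0449). On 1388469_at they were 7.72, 7.37, 7.67 and 7.17 with isoproterenol and 8.14, 8.96 and 8.13 with vehicle, a difference of -0.93 ± 0.25 (adjusted p = 0.0139). None of the 3 pairs of groups overlapped. This describes the arrays only, and the 3 probe sets read the same gene on the same arrays.

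The 3 h calls of Igf1 were less firm than those at 72 h. On 1388469_at the call was lost without isoproterenol 3 h replicate 4 (-0.82, adjusted p = 0.0513) or vehicle 3 h replicate 2 (-0.65, adjusted p = 0.15). On 1370333_a_at it was lost on leaving out isoproterenol 3 h replicate 2 or 4 or any of the 3 vehicle 3 h arrays (adjusted p = 0.055 to 0.142). On 1382599_at it was lost on leaving out each of 13 arrays in turn, among them all 4 isoproterenol arrays and vehicle replicates 1 and 2 of 3 h (adjusted p = 0.0501 to 0.195). The beta-actin 3' minus 5' difference, a measure of RNA quality, averaged 1.93 with isoproterenol and 1.36 with vehicle at 3 h. At 24 h the order was reversed and the gap wider, at 0.87 with isoproterenol and 1.64 with vehicle. With the beta-actin measure as a covariate, the 3 h difference of Igf1 was -0.68 on 1370333_a_at (adjusted p = 0.123) and -0.71 on 1382599_at (adjusted p = 0.134). The 3 h call on 1388469_at was kept with that covariate. It was lost without normalization (-1.09, adjusted p = 0.151) and with the replicate block (-0.82, adjusted p = 0.0619).

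At 1 h Igf1 on 1382599_at had 5.97, 6.24, 5.93, 6.32 and 6.66 with isoproterenol, against 7.26, 6.91 and 7.07 with vehicle. The groups did not overlap, but the difference of -0.86 ± 0.27 missed the threshold (adjusted p = 0.088). It passed with array weights (adjusted p = 0.00674), with only the arrays of 1 h in the fit (0.0123), with trimmed mean scaling (-0.96, 0.0451), and without isoproterenol 72 h replicate 1 (0.0201) or vehicle 24 h replicate 1 (0.0489). On 1370333_a_at the difference was -0.46 ± 0.25 (adjusted p = 0.48), also without overlap, and on 1388469_at it was -0.11 ± 0.24 (adjusted p = 0.918). At 24 h the 3 Igf1 differences were 0.32, 0.51 and -0.10, with adjusted p-values of 0.495, 0.259 and 0.859.

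The change of the Igf1 effect with time was tested directly. From 24 h to 72 h it grew by 1.54 ± 0.36 on 1370333_a_at (adjusted p = 0.0183) and by 1.28 ± 0.35 on 1388469_at (adjusted p = 0.0468), while the change of 0.84 ± 0.39 on 1382599_at was not called (adjusted p = 0.308). From 3 h to 24 h it changed by 1.35 ± 0.39 on 1382599_at (adjusted p = 0.0335), with 1.15 ± 0.37 (adjusted p = 0.0548) and 0.83 ± 0.36 (adjusted p = 0.164) on the other two. The Igf1 call of 1.28 was lost on leaving out each of 22 arrays in turn (adjusted p = 0.0507 to 0.177), vehicle 72 h replicate 1 giving the lowest value (1.13). The call of 1.35 was lost without isoproterenol 3 h replicate 1, isoproterenol 24 h replicate 2 or 4, vehicle 3 h replicate 1 or 2, or vehicle 24 h replicate 1 (adjusted p = 0.0508 to 0.125). The call of 1.54 was lost without vehicle 24 h replicate 2, vehicle 72 h replicate 1 or vehicle 72 h replicate 3 (adjusted p = 0.0563 to 0.0693), and without isoproterenol 72 h replicate 1 it was 1.86 (adjusted p = 1.26e-05). Without that array the change on 1382599_at was 1.11 and called (adjusted p = 0.0442), and the changes from 3 h to 24 h on 1370333_a_at (1.15, adjusted p = 0.00324) and 1388469_at (0.83, adjusted p = 0.0427) were called too. In the order of group means of 1370333_a_at, isoproterenol 72 h (10.83 ± 0.72, SD) stood 1.56 above the next group and isoproterenol 3 h (8.37 ± 0.21) was lowest, 0.44 under isoproterenol 1 h. Neighbouring means among the 6 groups between them, 8.81 to 9.27, lay within their SDs.

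**Figure D2:**
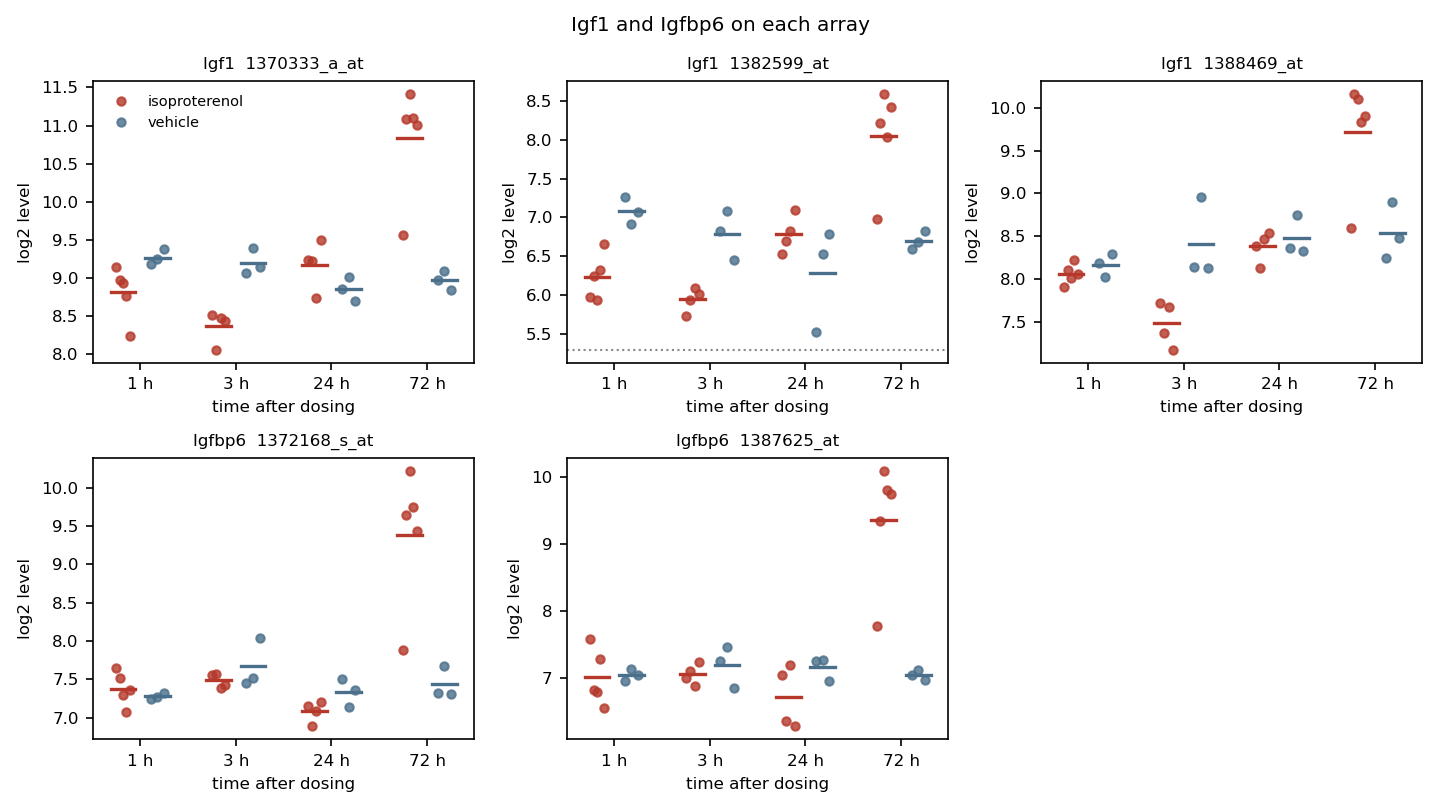
Log2 level (y axis) on each of the 30 arrays for the 3 Igf1 and 2 Igfbp6 probe sets, by time after dosing (x axis), isoproterenol in red left of vehicle in blue; short lines are group means and the dotted line is the filter level of 5.29. At 72 h, 4 of 5 isoproterenol arrays stand well above all vehicle arrays in every panel, and replicate 1 is the low point.

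Igf2, the second ligand and mainly a growth factor of the fetus, was not called at any time. Its 1 tested probe set, 1367571_a_at, had 8.57, 8.44, 8.46 and 8.55 at 24 h with isoproterenol, against 8.71, 8.71 and 9.55 with vehicle. The isoproterenol arrays were all below the vehicle arrays, with the highest vehicle array, at 9.55, far above the others, and the difference of -0.49 ± 0.22 missed the threshold (adjusted p = 0.157). The Igf2 differences at the other times were 0.46 (95% interval 0.03 to 0.89) at 1 h, 0.18 (-0.27 to 0.63) at 3 h and -0.23 (-0.66 to 0.20) at 72 h. The 3 dim Igf2 probe sets had mean log2 levels of 4.26 to 4.51 over all arrays.

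Igf1r encodes the receptor for both ligands, and no call was made for it at any single time. Probe set 1368123_at had 7.14, 7.01, 7.37, 7.34 and 7.18 at 1 h with isoproterenol, against 6.67, 6.77 and 6.57 with vehicle. All 5 isoproterenol arrays were higher, with a difference of 0.54 ± 0.18 that missed the threshold (adjusted p = 0.117, 95% interval 0.18 to 0.90). With array weights it was 0.56 (adjusted p = 0.0161), and with only the arrays of 1 h in the fit its adjusted p was 0.0335. It was 0.40 ± 0.19 at 3 h (adjusted p = 0.178), 0.02 at 24 h and 0.16 at 72 h. The other Igf1r probe set, 1392492_at, read 7.54, 7.43, 7.44, 7.47 and 7.41 with isoproterenol at 1 h and 7.45, 7.22 and 7.23 with vehicle, which overlap. Its 4 differences lay between -0.04 and 0.16, and their 95% intervals reached from -0.34 to 0.44. Over the time course the F test gave an adjusted p of 0.0465 for 1368123_at and 0.882 for 1392492_at. The Igf1r promoter window holds 2 EGR matches, starting at -243 and -155 from the listed start site, a motif found in 4.98% of all promoters.

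Igfbp3 and Igfbp4 rose in the first hours. Igfbp3 encodes the main carrier of IGFs in blood, and its 250 bases before the start site, on the minus strand at chr14:86277945-86278194 in GRCr8, are shown with those of Igfbp4, on the plus strand at chr10:84491221-84491470, as the regions before the 2 early genes. Capitals mark the TATA box of Igfbp4, which starts at -40 and is present in 14.2% of promoters.
Igfbp3: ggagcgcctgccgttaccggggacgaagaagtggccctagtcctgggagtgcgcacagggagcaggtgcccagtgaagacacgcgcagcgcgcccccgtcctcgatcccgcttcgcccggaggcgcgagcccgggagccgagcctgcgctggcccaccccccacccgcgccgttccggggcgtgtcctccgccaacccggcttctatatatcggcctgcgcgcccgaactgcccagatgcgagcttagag
Igfbp4: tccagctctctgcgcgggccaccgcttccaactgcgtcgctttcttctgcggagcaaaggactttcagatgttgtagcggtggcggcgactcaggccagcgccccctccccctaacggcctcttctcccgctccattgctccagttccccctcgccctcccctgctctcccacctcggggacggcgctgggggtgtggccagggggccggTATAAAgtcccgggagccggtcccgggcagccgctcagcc
At 3 h Igfbp3 on 1386881_at had 8.46, 8.99, 8.34 and 9.32 with isoproterenol, against 7.66, 6.70 and 7.70 with vehicle. All isoproterenol arrays were above the vehicle arrays, a 2.68-fold rise (1.42 ± 0.24, adjusted p = 9.16e-05) that was lost only without normalization (1.35, adjusted p = 0.0645). On 1367652_at they were 7.51, 8.63, 7.76 and 8.62 with isoproterenol and 7.14, 7.08 and 7.14 with vehicle. Again the groups did not overlap (1.01 ± 0.27, adjusted p = 0.0119), and this Igfbp3 call was lost without isoproterenol 3 h replicate 2 (0.84, adjusted p = 0.0539) or replicate 4 (0.85, adjusted p = 0.0544).

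At 1 h Igfbp3 on 1386881_at had 8.16, 8.49, 7.83, 8.07 and 7.69 with isoproterenol, against 6.89, 7.47 and 7.36 with vehicle. The 5 isoproterenol arrays were higher, by 0.81 ± 0.23, but the adjusted p of 0.0485 sat at the threshold and was lost in 9 of 14 alternative settings and on leaving out each of 20 arrays in turn (adjusted p = 0.0503 to 0.371, the last without vehicle 1 h replicate 1, where the difference was 0.64). On 1367652_at the 1 h difference of Igfbp3 was 0.38 ± 0.26 (adjusted p = 0.6). At 24 h the 2 probe sets gave 0.01 and 0.32, neither called, and at 72 h 0.50 (adjusted p = 0.137) and 0.26 (adjusted p = 0.555). The Igfbp3 effect of 1386881_at fell by 1.41 on the log2 scale between 3 h and 24 h (SE 0.34, adjusted p = 0.0103). That call was lost without vehicle 3 h replicate 2, the array with the lowest vehicle value (-1.09, adjusted p = 0.0525), and with the beta-actin covariate (-1.15, adjusted p = 0.182).

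Igfbp4, a binding protein known mainly for holding IGFs away from the receptor, was higher at 1 h. Its probe set 1371462_at had 8.24, 7.86, 8.23, 8.11 and 8.01 with isoproterenol, against 7.31, 7.27 and 7.40 with vehicle. The groups lay well apart, a 1.7-fold rise (0.76 ± 0.17, adjusted p = 0.00716). Without vehicle 1 h replicate 2 the difference of Igfbp4 was 0.74 with an adjusted p of 0.0519, and without normalization it was 0.51 (adjusted p = 0.753). At 3 h Igfbp4 had 7.91, 8.05, 8.0 and 7.82 with isoproterenol and 7.71, 7.53 and 7.79 with vehicle, a difference of 0.27 ± 0.18 that was not called (adjusted p = 0.389), although the groups did not overlap. The vehicle level of Igfbp4 was itself lowest at 1 h, 7.33 ± 0.07, against 7.89 ± 0.22 at 24 h (SD, n = 3 each), and the F test among vehicle times had an adjusted p of 0.359. At 24 h and 72 h the Igfbp4 differences were -0.03 and 0.20.

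Igfbp5 was lower with isoproterenol. It encodes a binding protein that also binds extracellular matrix, and in GRCr8 it is the protein-coding neighbour of Igfbp2. Its 250 bases before the start site, on the minus strand at chr9:81914188-81914437, are shown as the region before the member that fell, and hold no match to the searched motifs.
Igfbp5: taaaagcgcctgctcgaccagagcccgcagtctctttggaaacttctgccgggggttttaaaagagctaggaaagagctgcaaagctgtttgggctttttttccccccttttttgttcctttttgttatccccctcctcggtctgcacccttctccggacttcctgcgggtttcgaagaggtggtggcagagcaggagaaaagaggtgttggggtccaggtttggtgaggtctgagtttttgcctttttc
On 1370960_at, its most intense probe set, Igfbp5 had 9.30, 8.34, 8.35 and 8.69 at 3 h with isoproterenol, against 9.94, 9.90 and 9.40 with vehicle. At 24 h it had 8.62, 7.86, 9.14 and 8.22 with isoproterenol, against 9.49, 10.03 and 9.67 with vehicle. At 72 h it had 9.54, 9.13, 7.81, 8.56 and 8.94 with isoproterenol, against 9.61, 9.81 and 10.18 with vehicle. At each of these times every isoproterenol array was below every vehicle array, with replicate 1 at 72 h closest to vehicle.

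The Igfbp5 differences of 1370960_at were -1.07 ± 0.28 at 3 h (adjusted p = 0.0114), -1.27 ± 0.28 at 24 h (adjusted p = 0.00299) and -1.07 ± 0.27 at 72 h (adjusted p = 0.00597). At 1 h the values were 9.24, 8.87, 9.03, 8.97 and 9.02 with isoproterenol and 9.68, 9.41 and 9.45 with vehicle, again without overlap, and the difference of -0.49 ± 0.27 was not called (adjusted p = 0.494). All 4 vehicle means of Igfbp5, 9.51 to 9.86, stood above all 4 isoproterenol means, 8.46 to 9.03, and no difference between successive effects was called. Without isoproterenol 24 h replicate 3 the 24 h difference was -1.50 (adjusted p = 0.000331), and without isoproterenol 72 h replicate 1 the 72 h difference was -1.26 (adjusted p = 0.000629). The 3 h call was lost without vehicle 3 h replicate 1 (adjusted p = 0.0606) or replicate 2 (adjusted p = 0.0564), and the 72 h call without vehicle 72 h replicate 3 (-0.91, adjusted p = 0.0594). With the beta-actin covariate the 24 h difference of Igfbp5 was -1.01 (adjusted p = 0.0601), and without normalization the 3 differences were -1.16, -0.65 and -0.49 (adjusted p = 0.105, 0.245 and 0.426). The replicate block ended the calls at 3 h (-1.08, adjusted p = 0.0628) and 72 h (-1.04, adjusted p = 0.0518).

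Of the other Igfbp5 probe sets, 1387348_at had 7.26, 7.62, 6.28, 7.74 and 6.77 at 72 h with isoproterenol, against 8.48, 8.09 and 8.41 with vehicle. The groups were apart (-1.19 ± 0.40, adjusted p = 0.0381), and the call was lost without isoproterenol 72 h replicate 3 or 5 or vehicle 72 h replicate 1 or 3 (adjusted p = 0.0781 to 0.133). Igfbp5 on 1397830_at was lower at 3 h (-0.95 ± 0.31, adjusted p = 0.0408), where the groups overlapped and the call was lost without isoproterenol 3 h replicate 1 or 2 or vehicle 3 h replicate 2, the last leaving -0.56 (adjusted p = 0.0887 to 0.333). It was lower at 72 h as well (-0.86 ± 0.29, adjusted p = 0.0371), and that call was lost without the same 4 arrays as on 1387348_at (adjusted p = 0.0569 to 0.186). The dim probe set 1396152_s_at, at or above the filter level on 15 of 30 arrays before normalization, was called lower at 72 h (-1.07 ± 0.33, adjusted p = 0.0225). After normalization 2 of its 5 isoproterenol arrays and their mean of 5.18 were under that level. The call was lost without isoproterenol 72 h replicate 3 or 4 or vehicle 72 h replicate 3 (adjusted p = 0.0521 to 0.226). At 72 h all 4 tested Igfbp5 probe sets were thus called lower. Their groups did not overlap, which describes the arrays only. Alternative settings ended the 72 h call in 2 of 14 on 1370960_at and 7 of 14 on 1387348_at. On 1396152_s_at and 1397830_at they did so in 5 of the 13 settings that tested them. The 3 h call of 1397830_at was lost in 8 of 13. Of the 4 probe sets, 1396152_s_at and 1397830_at list the same source sequence, so the 4 are not separate lines of evidence. Without isoproterenol 72 h replicate 1 the 72 h differences of 1387348_at, 1396152_s_at and 1397830_at were -1.22, -1.15 and -0.84 (adjusted p = 0.035, 0.0139 and 0.0451).

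At the earlier times these 3 Igfbp5 probe sets were mostly not called, and their groups overlapped. At 3 h the difference was -0.57 ± 0.42 on 1387348_at (adjusted p = 0.444) and -0.69 ± 0.35 on 1396152_s_at (adjusted p = 0.216), the second being called without vehicle 3 h replicate 3 (-1.12, adjusted p = 0.0393). At 24 h it was -0.83 ± 0.42 on 1387348_at (adjusted p = 0.22), -0.59 ± 0.35 on 1396152_s_at (adjusted p = 0.294) and -0.44 ± 0.31 on 1397830_at (adjusted p = 0.402). At 1 h the 3 differences of Igfbp5 were -0.62, -0.16 and -0.10, with adjusted p-values of 0.575, 0.907 and 0.937.

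**Figure D3:**
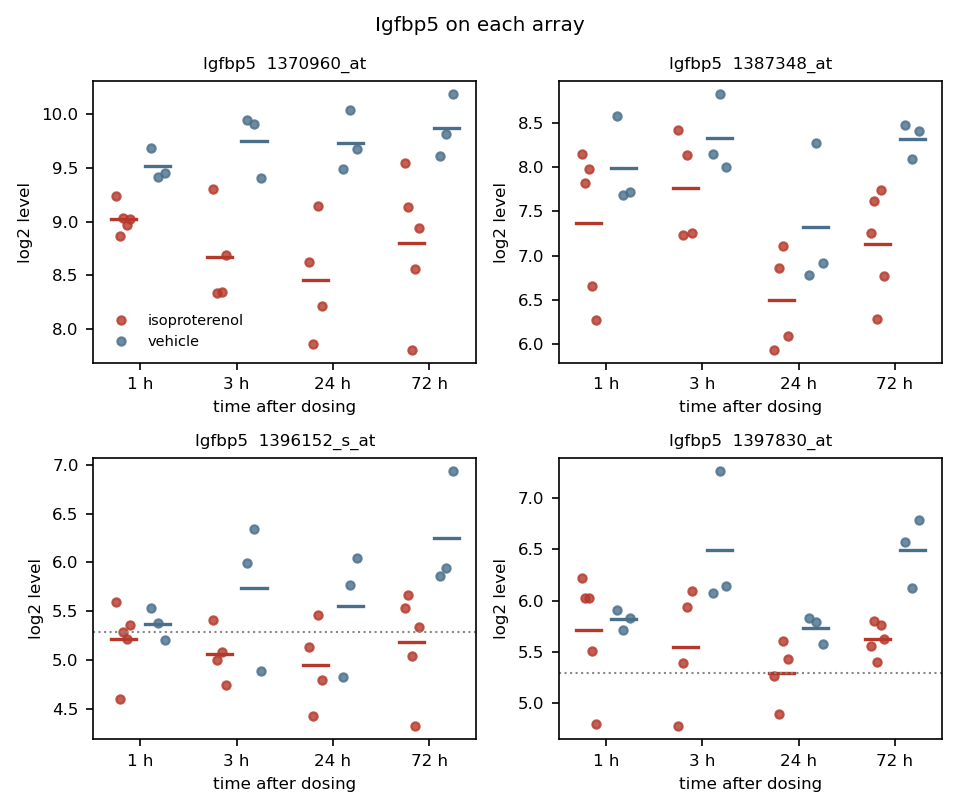
Log2 level (y axis) of the 4 tested Igfbp5 probe sets on each of the 30 arrays by time after dosing (x axis), isoproterenol in red left of vehicle in blue, with group means as lines and the filter level of 5.29 dotted. On 1370960_at the red and blue points do not overlap at any time, and at 72 h they do not overlap on any of the 4, which describes the arrays only.

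Igfbp6, a binding protein with a preference for IGF2, was higher at 72 h on both probe sets and was not called earlier. Its 250 bases before the start site, on the plus strand at chr7:135154669-135154918 in GRCr8, are shown because its rise is the largest of the family and came at the time when Igf1 rose; they hold no match to the searched motifs.
Igfbp6: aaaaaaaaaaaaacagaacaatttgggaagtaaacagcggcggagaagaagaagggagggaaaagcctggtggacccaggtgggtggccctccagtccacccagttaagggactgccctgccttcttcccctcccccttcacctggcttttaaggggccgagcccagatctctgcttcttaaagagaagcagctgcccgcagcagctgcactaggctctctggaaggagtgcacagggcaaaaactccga
On 1387625_at Igfbp6 had 7.78, 9.35, 10.10, 9.82 and 9.76 at 72 h with isoproterenol, against 7.05, 7.12 and 6.97 with vehicle. On 1372168_s_at it had 7.89, 9.64, 10.22, 9.75 and 9.44 with isoproterenol, against 7.32, 7.68 and 7.31 with vehicle. All isoproterenol arrays were above vehicle on both, and replicate 1 was again much the lowest of its group.

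The rise of Igfbp6 at 72 h was 5.0-fold on 1387625_at (2.32 ± 0.31, adjusted p = 1.02e-05) and 3.87-fold on 1372168_s_at (1.95 ± 0.27, adjusted p = 1.39e-05). Without isoproterenol 72 h replicate 1 the differences were 2.72 (adjusted p = 1.95e-10) and 2.33 (adjusted p = 2.39e-11). Both calls of Igfbp6 at 72 h were kept in all 14 alternative settings and without each array in turn. At 1, 3 and 24 h the 6 Igfbp6 differences lay between -0.45 and 0.10, with adjusted p-values of 0.436 to 0.981. The effect grew between 24 h and 72 h by 2.77 ± 0.46 (adjusted p = 0.00108) and 2.21 ± 0.40 (adjusted p = 0.00232).

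Igfbp7, a secreted protein that binds IGFs weakly and is made by vessels and fibroblasts, was lower at 3 h and higher at 72 h by small steps. Probe set 1371357_at had 11.05, 10.60, 10.60 and 10.88 at 3 h with isoproterenol, against 11.38, 11.66 and 10.94 with vehicle. These Igfbp7 groups overlapped, because 1 vehicle array, at 10.94, lay within the isoproterenol range (-0.55 ± 0.16, adjusted p = 0.0182). At 72 h it had 11.38, 11.73, 12.02, 11.85 and 11.90 with isoproterenol, against 11.43, 11.23 and 11.38 with vehicle. Replicate 1 again lay within the vehicle range, and the difference was 0.43 ± 0.15 (adjusted p = 0.0423), or 0.53 (adjusted p = 0.00667) without it.

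At 24 h Igfbp7 was -0.44 ± 0.16, just short of the threshold (adjusted p = 0.056). It passed with the beta-actin covariate (-0.73, adjusted p = 0.0039), the array median covariate (-0.57, adjusted p = 0.0385), array weights (-0.43, adjusted p = 0.0125) and a filter at the 60th percentile (adjusted p = 0.0405), and on leaving out each of 6 arrays in turn (adjusted p = 0.0325 to 0.0491). Without normalization it was 0.11 (adjusted p = 0.853). The effect of Igfbp7 changed by 0.87 ± 0.22 between 24 h and 72 h (adjusted p = 0.0262). The 3 h call was lost without isoproterenol 3 h replicate 2 or 3 or vehicle 3 h replicate 1 or 2 (adjusted p = 0.0567 to 0.177). The 72 h call was lost without any 1 of the 72 h arrays other than isoproterenol replicate 1 (adjusted p = 0.0615 to 0.133). The change from 24 h to 72 h was lost without isoproterenol 24 h replicate 4, vehicle 24 h replicate 1 or 2, or vehicle 72 h replicate 1 or 3 (adjusted p = 0.0549 to 0.0776). Of the 14 alternative settings, 5 ended the 3 h call of Igfbp7, 8 the 72 h call and 6 this change. Centring arrays on their median in place of quantile normalization brought the 3 h difference of Igfbp7 to -0.34 (adjusted p = 0.397) and the beta-actin covariate to -0.34 (adjusted p = 0.115).

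Igfbp2, the binding protein adjacent to Igfbp5 in GRCr8 and abundant in fetal tissue and serum, was dim. Before normalization it was at or above the filter level on 15 of 30 arrays. At 24 h its probe set 1367648_at had 6.14, 6.59, 5.77 and 5.90 with isoproterenol, against 5.40, 4.53 and 5.43 with vehicle. The isoproterenol arrays were above vehicle (0.98 ± 0.31, adjusted p = 0.0305). After normalization 1 vehicle array and the vehicle mean of 5.12 were under the filter level, so the size is uncertain. The call of Igfbp2 was lost without vehicle 24 h replicate 2 (0.69, adjusted p = 0.218), isoproterenol 24 h replicate 1 (0.95, adjusted p = 0.0643) or isoproterenol 24 h replicate 2 (0.81, adjusted p = 0.137). With the beta-actin covariate it was 0.51 (adjusted p = 0.4), with the array median covariate 0.67 (adjusted p = 0.232), and with an added constant of 1 in place of 16 it was 1.54 and not called (adjusted p = 0.081). Without isoproterenol 24 h replicate 3 it was 1.09 (adjusted p = 0.0182). At 1, 3 and 72 h the Igfbp2 differences were -0.67, 0.37 and 0.02, none called.

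**Figure D4:**
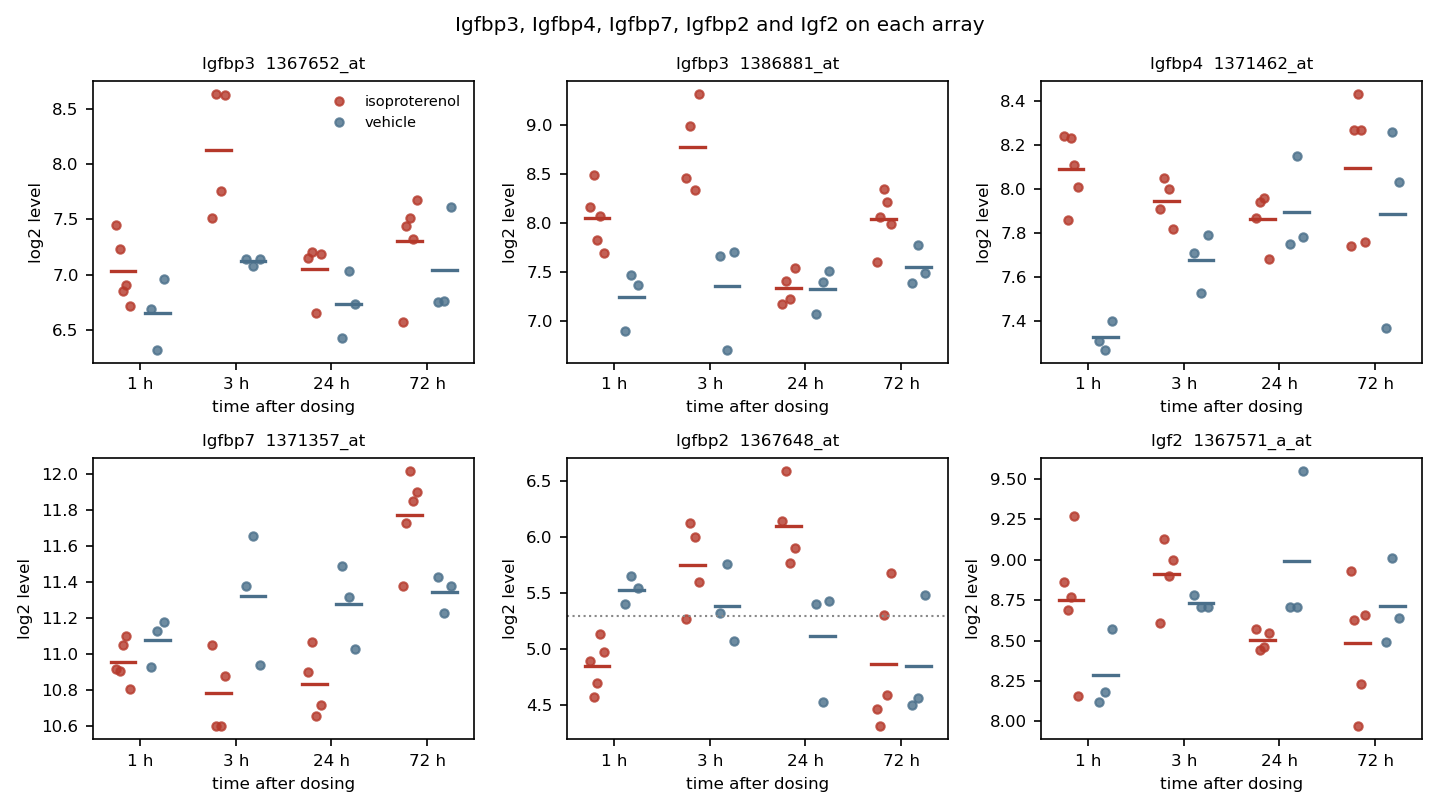
Log2 level (y axis) of Igfbp3, Igfbp4, Igfbp7, Igfbp2 and Igf2 on each of the 30 arrays by time after dosing (x axis), isoproterenol in red left of vehicle in blue, with group means as lines and the filter level of 5.29 dotted. Igfbp3 is highest in the isoproterenol 3 h arrays, Igfbp4 is apart from vehicle at 1 h, and Igf2 shows no called difference.

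Leaving out the arrays that stood apart, which were picked for their likeness to vehicle, left the same 2 probe sets called at 24 h and the same 10 at 72 h. Without isoproterenol 24 h replicate 3 the 24 h differences were 0.46, 0.49 and -0.13 for Igf1 on 1370333_a_at, 1382599_at and 1388469_at, -0.47 for Igf2, 0.05 and -0.02 for Igf1r on 1368123_at and 1392492_at, and -0.06 for Igfbp4. They were 0.05 and 0.45 for Igfbp3 on 1386881_at and 1367652_at, -0.26 and -0.60 for Igfbp6 on 1372168_s_at and 1387625_at, and -0.38 for Igfbp7 (adjusted p = 0.109). For Igfbp5 on 1387348_at, 1396152_s_at and 1397830_at they were -1.03, -0.77 and -0.54. Without isoproterenol 72 h replicate 1 the 72 h differences were -0.34 for Igf2, 0.12 and -0.03 for Igf1r, 0.13 for Igfbp2 and 0.29 for Igfbp4. Igfbp3 was then 0.61 on 1386881_at (adjusted p = 0.0551) and 0.44 on 1367652_at (adjusted p = 0.217), and with array weights 0.62 on 1386881_at (adjusted p = 0.0184).

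Over the time course the F test of an isoproterenol effect called 15 of the 17 tested probe sets, where 32% of all tested probe sets were called; Igf2 and Igf1r 1392492_at were the exceptions. The F test among the 4 vehicle groups called 0 of 17, with 4 at an unadjusted p under 0.05, where 0.0988% of all were called. The effect differed between 1 h and 3 h for 0 of 17, with 2 at an unadjusted p under 0.05 and a background of 0.58%. It differed between 3 h and 24 h for 2 (background 6.79%) and between 24 h and 72 h for 5 (background 2.12%). Without isoproterenol 72 h replicate 1 these last counts were 4 and 6, and without isoproterenol 24 h replicate 3 they were 3 and 5.

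Markers of other cell types moved at the times when Igf1 and Igfbp6 rose. At 72 h, 14 of 20 tested fibroblast and mural cell markers were called higher and 0 lower, and their summed intensity was 28919 to 72780 with isoproterenol, against 18748 to 25472 with vehicle. Of 25 tested monocyte and macrophage markers 22 were higher and 0 lower at 72 h, with sums of 5939 to 26163 with isoproterenol and 3193 to 4080 with vehicle. Among all tested genes 13.2% were called higher and 8.82% lower at 72 h. In both marker lists isoproterenol 72 h replicate 1, the array lowest in Igf1 and Igfbp6, was the lowest of its group, at 28919 and 5939. In bulk heart RNA a change in the number of cells of a type and a change in RNA per cell cannot be told apart, and the part of cell composition in the rise of Igf1 and Igfbp6 was not tested.

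The macrophage markers were already up at 24 h, with 18 of 25 higher and 0 lower and sums of 13363 to 36370 with isoproterenol against 3328 to 5274 with vehicle. Igf1 and Igfbp6 were not called at that time, and 3 of 20 fibroblast and mural cell markers were called higher and 1 lower. Among all tested genes 10% were called higher and 7.16% lower at 24 h. Beside Igfbp5, 0 of 16 cardiomyocyte markers were called higher and 2 lower at 72 h, against 13.2% and 8.82% of all tested genes. Their sums were 103419 to 127785 with isoproterenol and 126629 to 129154 with vehicle. At 24 h the counts of cardiomyocyte markers were 0 and 3. Endothelial markers counted 0 higher and 3 lower of 16 at 72 h. Whether such small counts differ from the shares of all genes was not tested. At 3 h the neutrophil markers counted 4 higher and 0 lower of 6 tested beside the rise of Igfbp3, against 6.95% and 6.33% of all tested genes. Their sums were 475 to 709 with isoproterenol and 157 to 239 with vehicle, and Mmp9 and Camp did not reach the filter.

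**Figure D5:**
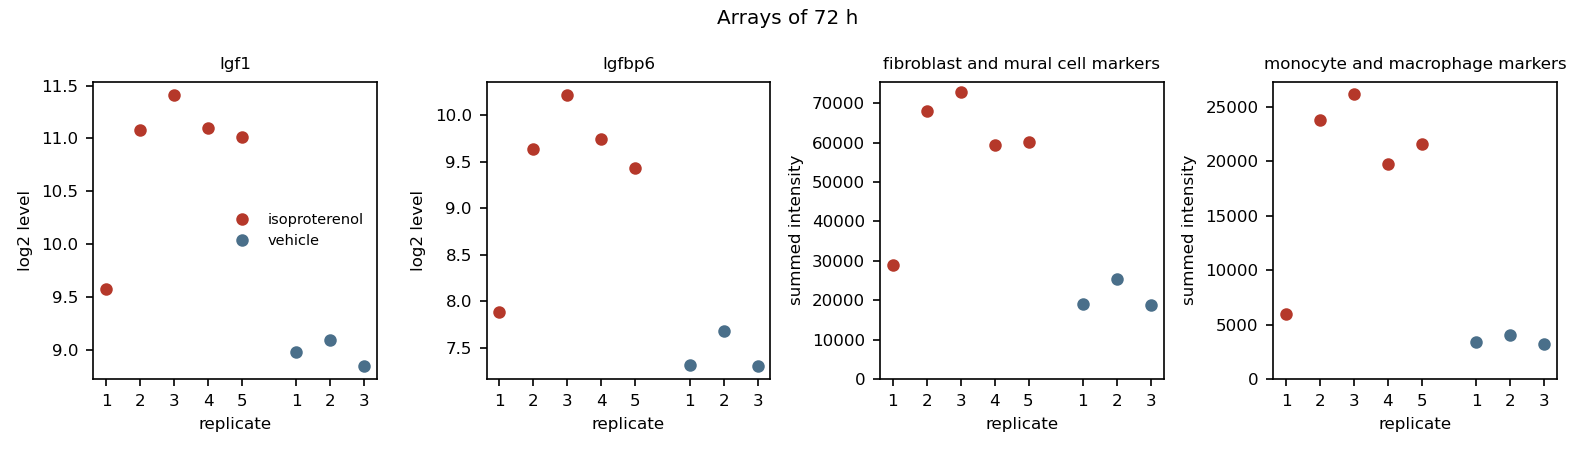
The 8 arrays of 72 h by replicate (x axis), 5 isoproterenol in red left of 3 vehicle in blue: log2 level of Igf1 (1370333_a_at) and Igfbp6 (1372168_s_at), and summed intensity of the fibroblast and mural cell markers and of the monocyte and macrophage markers. Isoproterenol replicate 1 is the lowest of its group in all 4 panels, at 9.57 for Igf1 and 28919 for the fibroblast and mural cell markers.

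Across the 30 arrays, Igf1 and Igfbp6 followed each other (Pearson's r = 0.875 between 1370333_a_at and 1372168_s_at), as did Igf1 and Igfbp7 (r = 0.79), while Igf1 and Igfbp5 did not (r = -0.237). These are descriptions, since the arrays share groups and a normalization. The r of Igf1 with Igfbp6 may lean on the isoproterenol 72 h arrays, and it was not computed without those arrays. There the mean of Igfbp6 on 1372168_s_at was 9.39, against 7.08 to 7.67 in the other groups. The genes most like Igf1 over the 30 arrays were Col5a1 (r = 0.959), a fibrillar collagen chain, Gpx7 (0.956), a peroxidase of the endoplasmic reticulum, and Loxl1 (0.949), a crosslinking enzyme of elastic fibres. Those most like Igfbp6 were Fndc1 (0.948), Pltp (0.948), the phospholipid transfer protein, and Bgn (0.941), the matrix proteoglycan biglycan. Igfbp7 was most like Mfap4 (0.886), a microfibril-associated protein, C1qtnf2 (0.884) and Fcgrt (0.876), the neonatal Fc receptor. Those most like Igfbp5 were Klhl33 (0.895), Akap1 (0.892), which anchors protein kinase A at mitochondria, and Lrrc14b (0.885). Igfbp3 was most like Cyp1b1 (0.827), Sphk1 (0.822), a sphingosine kinase, and S1pr3 (0.821), a sphingosine phosphate receptor. Within groups, that is after each group mean was removed, the correlation with Igfbp3 was 0.316 for Cyp1b1 and 0.325 for Sphk1 but 0.757 for S1pr3, and for the genes named with Igf1, Igfbp5, Igfbp6 and Igfbp7 it was 0.538 to 0.883. The best matches were weaker for Igfbp2, with Uchl3 (0.79), Ung (0.735) and Farsa (0.734), and for Igfbp4, with St6gal1 (0.676), N4bp2l2 (0.666) and Fam167a (0.658).

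The wider pathway was read through 88 listed genes, of which 72 were tested. Of these, 4 were higher and 1 lower at 1 h, 13 higher and 8 lower at 3 h, 7 higher and 9 lower at 24 h, and 14 higher and 6 lower at 72 h. The shares of all 12451 tested genes called higher and lower were 2.37% and 1.04% at 1 h, 6.95% and 6.33% at 3 h, 10% and 7.16% at 24 h, and 13.2% and 8.82% at 72 h. The median differences of the 72 genes were 0.06, -0.02, -0.08 and -0.04 at the 4 times, against -0.03, -0.06, -0.01 and 0.01 over all tested genes.

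Among signalling genes, Irs2, an insulin receptor substrate docked by the IGF1 receptor, averaged 10.00 at 1 h with isoproterenol and 7.11 with vehicle (2.89 ± 0.23, adjusted p = 1.75e-10), and was 1.96 ± 0.24 higher at 3 h (adjusted p = 6.85e-07). Pik3ip1, an inhibitor of PI3 kinase, was lower at all 4 times, by -1.20 at 1 h, -1.73 at 3 h, -0.65 at 24 h and -0.73 at 72 h (adjusted p = 7.02e-07 at 3 h). Pik3r1, a regulatory subunit of PI3 kinase, fell by 1.32 at 3 h and by 1.28 at 72 h, and Foxo1, a transcription factor that AKT holds out of the nucleus, fell by 0.99 and 1.14 at the same times. At 72 h the receptor adaptor Grb10 was 1.02 higher and Sesn3, a sestrin, 1.03 higher. Of the 35 tested genes of this list, 1, 3, 3 and 5 were higher and 1, 7, 3 and 4 lower at 1, 3, 24 and 72 h.

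In the growth hormone list of 11 tested genes, Socs3, an inhibitor of JAK signalling, was 2.60 ± 0.28 higher at 1 h (adjusted p = 6.96e-08) and 1.70 ± 0.29 higher at 3 h (adjusted p = 0.000107). Cish, another inhibitor of that family, was 1.33 higher and Jak2, the kinase of the growth hormone receptor, 1.35 higher at 3 h. The growth hormone receptor gene Ghr had differences of -0.11, 0.03, -0.28 and -0.19 at the 4 times, none called. At 24 h and 72 h the phosphatase gene Ptpn6, which is expressed mainly in blood cells, was 2.02 and 2.24 higher. Macrophage markers were called higher at those times too, and the part of cell composition in the rise of Ptpn6 was not tested. Socs2 fell by 0.98 at 72 h. Over the list 1, 4, 1 and 1 genes were higher and 0, 0, 0 and 1 lower at the 4 times.

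Among proteases of the binding proteins and their inhibitors, Timp1, an inhibitor of metalloproteinases, was 2.58, 4.26, 4.24 and 2.90 higher at 1, 3, 24 and 72 h (adjusted p = 0.00179, 9.18e-07, 6.8e-06 and 0.000199). Stc1, which like Stc2 inhibits the protease that cleaves IGFBP4, was 1.62 ± 0.20 higher at 1 h (adjusted p = 1.46e-06) and fell by 0.70 at 24 h, while Stc2 fell by 0.93 at 24 h and by 1.02 at 72 h. Htra3 fell by 2.00 at 24 h (adjusted p = 2.76e-06), and Mmp2, a gelatinase, fell by 0.74 at 24 h but was 1.30 ± 0.19 higher at 72 h (adjusted p = 1.84e-05). Htra1 was 0.52 higher at 3 h and 0.61 higher at 72 h. Over the 9 tested genes 2, 2, 2 and 3 were higher and 0, 0, 4 and 1 lower at the 4 times.

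Among further receptors and binding partners, Igf2r, the receptor that clears IGF2 to lysosomes, was 0.60 ± 0.17 higher at 72 h (adjusted p = 0.0149). Ccn2, or connective tissue growth factor, was 1.08, 2.01 and 2.37 higher at 3, 24 and 72 h, and Ccn5 was 2.76 ± 0.46 higher at 72 h (adjusted p = 0.000109). Ccn1 was 2.67 ± 0.66 higher at 3 h (adjusted p = 0.00674), Esm1, an endothelial proteoglycan, fell by 1.08 at 3 h (adjusted p = 0.0282), and Ltbp1, a latent TGF-beta binding protein, fell by 0.99 at 24 h (adjusted p = 0.000868). The insulin receptor gene Insr was not called, with differences of 0.10, 0.47, -0.40 and -0.34 at the 4 times. Over the 9 tested genes 0, 2, 1 and 4 were higher and 0, 1, 1 and 0 lower.

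In the list of IGF2 mRNA-binding proteins and imprinted growth genes, Plagl1, an imprinted zinc finger gene, was 1.40 ± 0.33 higher at 3 h (adjusted p = 0.00394) and 1.43 ± 0.31 higher at 72 h (adjusted p = 0.00162). Igf2bp2, which binds Igf2 mRNA, was 0.96 ± 0.26 higher at 3 h (adjusted p = 0.0147), and Cdkn1c, a cell cycle inhibitor, fell by 0.83 at 24 h (adjusted p = 0.00425). Over the 9 tested genes 0, 2, 0 and 2 were higher and 0, 0, 1 and 0 lower at the 4 times.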

How the data were processed

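Heart samples of isoproterenol and vehicle rats were hybridised singly to Affymetrix RAT230_2 arrays. Total RNA was extracted with a Qiagen kit and labelled by the standard Affymetrix protocol, per the labels' protocols. The deposited table holds 1 intensity per probe set and array on a linear scale; how it was summarised, scaled and background-corrected is not stated in the labels or the table. Groups, times and replicate numbers were taken from the sample labels.

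The 57 control probe sets were removed. The deposited intensities were turned into log2(intensity + 16) and quantile-normalized. Probe sets at or above the 40th percentile of all values (5.29 log2 units, an intensity of 23) in at least 3 of 30 arrays were tested, 24292 of 31042. Gene names came from the platform annotation: 20826 probe sets name 1 gene, 436 several and 9780 are not listed. Several probe sets of a member were all reported, and for other genes the probe set with the highest mean was used. Fold changes of dim probe sets are understated by the added 16.

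limma 3.58.1 in R 4.3.3 fitted 8 group means over 30 arrays (22 residual degrees of freedom, variance trend with intensity), with two-sided tests, Benjamini-Hochberg adjustment over all tested probe sets in each contrast and a threshold of 0.05. The code was tested on simulated data. All members were named. Of the 5 pathway lists, genes past the threshold could be named, and the 3 largest rises and 3 largest falls at each time were. Likeness was the 3 highest Pearson's r over the arrays, for members past the F test. Members and lists were chosen with earlier results of these data known, and Ghr and Insr, which pass no threshold, were named after their values were seen. Alternatives were 14 other settings (normalization, added constant, filter, variance model, array weights, a replicate block, only the arrays compared, RNA quality, array brightness) and leaving out each array; of these, trimmed mean scaling and the beta-actin and array median covariates were chosen after seeing the data. The number of arrays limits the precision. Promoter sequences are from RefSeq, assembly GRCr8; all 9 members matched by symbol, with 10 entries. The files name no genome build.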

Additional observations from a re-analysis of the deposited data

Results flagged for a closer look

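Within groups of 4 or 5 arrays, 5 of 68 groups examined had 1 array far from the others, measured as its gap to the nearest array over the range of the group; chance flags about 1 in 20 groups. Igf1 on 1370333_a_at was low in isoproterenol 72 h replicate 1 (9.57, ratio 0.779), and so was Igf1 on 1388469_at (8.59, ratio 0.789), the array that also stood apart over all probe sets. Igf1 on 1370333_a_at was low in isoproterenol 3 h replicate 2 (8.06, ratio 0.847). Igf1r on 1368123_at was low in isoproterenol 3 h replicate 4 (6.85, ratio 0.897), and Igfbp3 on 1367652_at in isoproterenol 24 h replicate 3 (6.65, ratio 0.917).

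The isoproterenol effect differed between successive times for 7 probe sets by limma's test of the difference, with positive values meaning a higher effect at the later time. Between 24 h and 72 h it changed by 1.54 and 1.28 for Igf1 (1370333_a_at and 1388469_at), by 2.21 and 2.77 for Igfbp6 (1372168_s_at and 1387625_at) and by 0.87 for Igfbp7. Between 3 h and 24 h it changed by 1.35 for Igf1 (1382599_at) and by -1.41 for Igfbp3 (1386881_at).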

How the results depend on the processing

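No called difference changed sign under any setting or left-out array, while 38 of 119 differences, none of them called, did so at least once. Without normalization the 24 h differences became 0.11 for Igfbp7, 0.15 for Igf2, 0.61 for Igfbp4, 0.17 and 0.39 for Igfbp6 (1387625_at and 1372168_s_at) and 0.53 for Igf1 1388469_at. Of 29 called differences 6 were kept under all 14 settings and without every array: Igf1 on 3 probe sets and Igfbp6 on 2 at 72 h, and the 24 to 72 h change of Igfbp6 on 1387625_at. Of the 2 calls at 1 h, 1 was left with median centring, an added constant of 1 or 64, no filter, no intensity trend, the replicate block or the beta-actin covariate and 0 without normalization; both were kept with array weights, which added 2 calls to make 4, and with only the arrays compared, which added 3 to make 5. Of the 8 calls at 3 h, 4 were left with median centring or the beta-actin covariate, 0 without normalization, 3 with the replicate block and 5 with only the arrays compared. Of the 2 calls at 24 h, 1 was left with an added constant of 1. With the beta-actin covariate 0 of the 2 were left and 1 other was gained, and without normalization or with the array median covariate 1 was left and 1 gained. Of the 10 calls at 72 h, 5 were left without normalization and 6 with the replicate block. For the change from 3 h to 24 h the count of 2 became 1 with an added constant of 64 or the array median covariate and 0 with the replicate block or the beta-actin covariate, and without normalization 1 was kept and 1 gained. For the change from 24 h to 72 h the count of 5 became 3 with median centring, no intensity trend or trimmed mean scaling, 1 without normalization, and 2 with the replicate block or only the arrays compared. The F test over times called 9 in place of 15 without normalization. The cause of these shifts was not tested. Leaving out 1 array gave 0 to 3 calls at 1 h, 2 to 8 at 3 h, 1 to 3 at 24 h, 5 to 10 at 72 h, 0 to 4 and 2 to 6 for the later changes, 12 to 15 for the F test, and 0 for the change from 1 h to 3 h and among vehicle times. Without normalization the median of all tested probe sets moved to -0.23, -0.19, 0.47 and 0.36 at 1, 3, 24 and 72 h, from -0.03, -0.05, -0.02 and -0.04, so differences there are relative to that shift, and total calls were 190, 478, 3095 and 2380, against 643, 2766, 3165 and 4354. The block gave 399, 1642, 1527 and 2945 in total, and array weights 1698 at 1 h, 5251 at 24 h and 7208 at 72 h. With only the arrays compared the totals were 1313, 1331, 2104 and 2398, and at 24 h the beta-actin covariate gave 1110 and the array median covariate 1612. Whether same-numbered samples form pairs was not settled. Of 12 correlations of their deviations 2 exceeded 0.1 (range -0.0739 to 0.125), but 7 of the 12 arrays matched their own number best. Dim probe sets (Igfbp2 and Igfbp5 1396152_s_at) carry the least signal over background.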
